A study of Arabidopsis thaliana with 12 samples.

Results

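Plants signal from stressed mitochondria to the nucleus by retrograde regulation. In Arabidopsis, the transcription factors NAC13 and NAC017 are held at the endoplasmic reticulum by a membrane anchor, are released when mitochondrial electron transport is disturbed, and activate nuclear genes for alternative respiration, protein folding and detoxification. UPOX and AOX1A are widely used readouts of this response. The 10 genes described here are regulators of this kind and markers of mitochondrial stress: UPOX (AT2G21640), NAC13 (AT1G32870), NAC016 (AT1G34180), NAC017 (AT1G34190), NAC053 (AT3G10500), CRF6 (AT3G61630), the mitochondrial small heat shock protein genes AT5G51440 and HSP23.6-MITO (AT4G25200), AT5G09570 and the MATE transporter gene AT2G04050. They were taken by gene ID from the 33610 gene IDs of the deposited mRNA tables. They were chosen by earlier measured differences between amiR-SEAP1 and WT in these same libraries as well as by their known roles, so the genotype differences are given as a description, without a test.

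The mRNA was from inflorescences of Arabidopsis thaliana of the accession Columbia (Col), 4 libraries from amiR-SEAP1 plants and 4 from wild-type (WT) plants. The amiR-SEAP1 plants carry an artificial miRNA, an engineered small RNA that directs cleavage of a chosen transcript, against SEAP1. Neither the promoter that drives it nor the number of lines is stated, and the targeted gene itself is not analysed here. Levels are FPKM, fragments scaled to transcript length and to the mapped fragments of the library, so they can be compared between genes. Differences are on the log2(FPKM + 1) scale, on which weakly expressed genes appear to change less than they do. In bulk tissue, a lower share of cells of a type and less RNA per cell cannot be told apart.

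The column headers divide the libraries into 2 sets, named FLW (replicates 1 and 2) and AI (replicates 3 and 4). The headers call the amiR-SEAP1 libraries R15 in FLW and R155 in AI, and whether these are the same line is not stated. The paired libraries of a genotype lay close together in each set, with a median absolute log2 difference of 0.038 to 0.040 for genes averaging at least 10 FPKM, against 0.174 in amiR-SEAP1 and 0.219 in WT between the sets. They were counted as 1 sample, and means ± SD are over n = 2 sets per genotype. The labels name no separate plants or cultures, so p-values measure only how far these samples spread, which can be a technical matter. The FPKM of a library summed to 680667 at the lowest and 715611 at the highest, and the depth in reads is unknown.

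Of the 10 genes, 6 lay higher in all 4 amiR-SEAP1 libraries than in any WT library: UPOX, NAC13, NAC053, CRF6, AT5G51440 and AT2G04050. Their mean levels were between 1.5 times (NAC053) and 18.3 times (AT2G04050) the WT mean. NAC017 was level between the genotypes, and HSP23.6-MITO was barely detected. NAC016 was higher in amiR-SEAP1 in AI and overlapped between the genotypes in FLW. AT5G09570 was higher in amiR-SEAP1 in AI and lower in FLW. Of the 20743 tested genes, those averaging at least 1 FPKM, 14.8% were likewise higher in amiR-SEAP1 without overlap and 9.56% lower. UPOX, NAC13, CRF6, AT5G51440 and AT2G04050 were at least 2 times as high in amiR-SEAP1 as in WT in both sets, as were 0.482% of tested genes. The level for testing was reached by 9 of the 10 genes, and AT5G51440 and AT2G04050 reached it only through amiR-SEAP1.

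**Figure D1:**
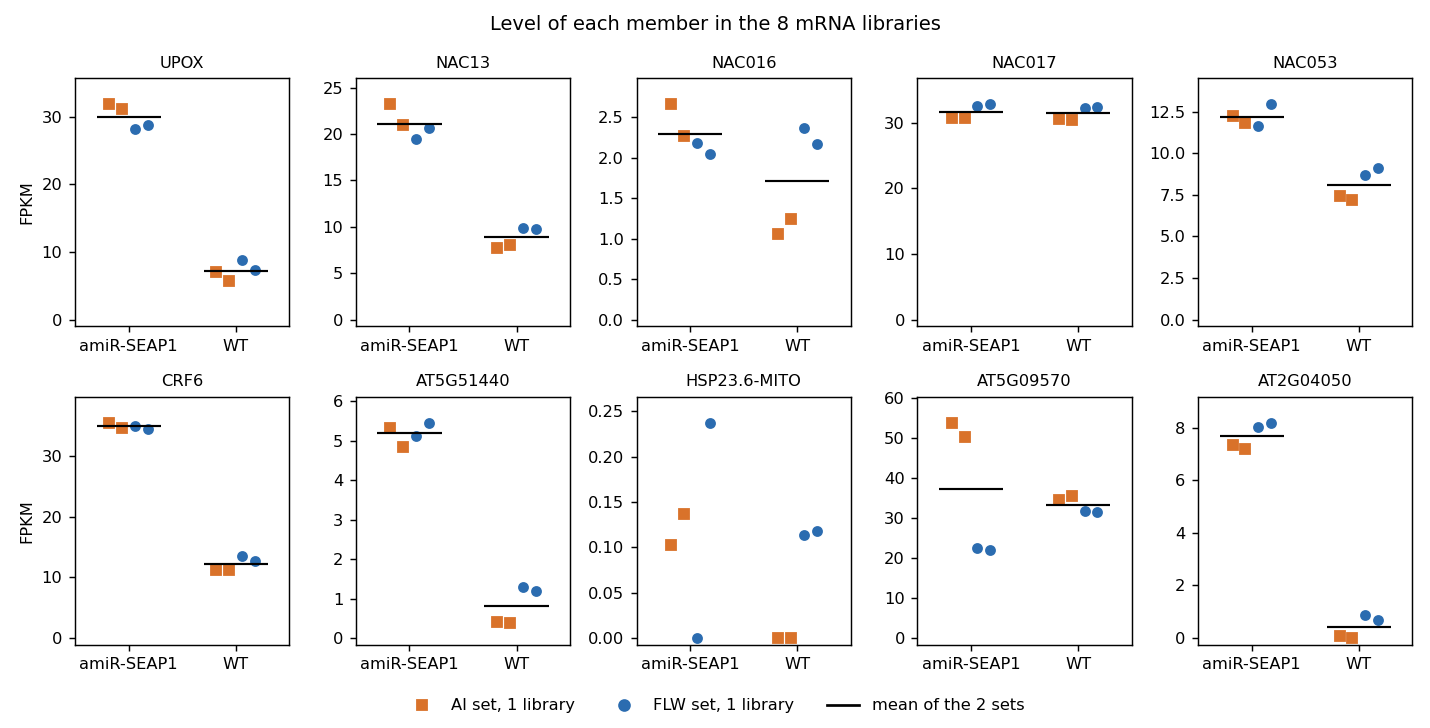
FPKM (vertical axis, linear, a separate scale per panel) of the 10 genes in each library, amiR-SEAP1 left and WT right, with AI libraries as squares, FLW libraries as circles and the mean of the 2 sets as a line (none for HSP23.6-MITO, which is listed at 0 in 3 libraries). UPOX, NAC13, NAC053, CRF6, AT5G51440 and AT2G04050 show no overlap between the genotypes, NAC017 lies near 31 FPKM in both, and the amiR-SEAP1 libraries of AT5G09570 lie on either side of WT by set.

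Among the regulators, NAC13, an activator of the mitochondrial stress genes, had 19.5, 20.7, 23.2 and 21.0 FPKM in amiR-SEAP1 replicates 1 to 4, against 9.91, 9.82, 7.76 and 8.06 FPKM in WT replicates 1 to 4. The lowest amiR-SEAP1 library thus lay far above the highest WT library, and the means were 21.1 ± 1.45 FPKM in amiR-SEAP1 and 8.89 ± 1.38 FPKM in WT. NAC13 overlaps AT1G32880 in the reference annotation. That gene averaged 0.839 FPKM in amiR-SEAP1 and 0.186 FPKM in WT, and as the use of strand is unknown, the values of both are uncertain to that extent.

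NAC017, the other well-studied membrane-bound activator, was as abundant in amiR-SEAP1 as in WT. It had 32.6, 32.8, 30.7 and 30.7 FPKM in amiR-SEAP1, against 32.3, 32.4, 30.6 and 30.5 FPKM in WT. The log2 difference was 0.01 in AI and 0.02 in FLW, and 52.9% of tested genes had a larger mean difference. In WT its transcript was the most abundant of the 5 transcription factor genes (31.4 ± 1.28 FPKM), followed by CRF6 (12.2 ± 1.37), NAC13 (8.89 ± 1.38), NAC053 (8.12 ± 1.16) and NAC016 (1.71 ± 0.792). In amiR-SEAP1, CRF6 (34.9 ± 0.271 FPKM) stood above NAC017 (31.7 ± 1.43) and NAC13 (21.1 ± 1.45), with NAC053 at 12.2 ± 0.181 and NAC016 at 2.29 ± 0.244.

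NAC016, a close relative of NAC017 known for promoting leaf senescence, is its direct neighbour on the chromosome. It had 2.19, 2.05, 2.66 and 2.27 FPKM in amiR-SEAP1, against 2.36, 2.17, 1.05 and 1.24 FPKM in WT. amiR-SEAP1 was at 2.15 times WT in AI and at 0.934 times in FLW. The 2 WT libraries of AI were the low ones.

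NAC053, a membrane-bound NAC factor linked to reactive oxygen and to proteasome stress, had 11.7, 12.96, 12.3 and 11.9 FPKM in amiR-SEAP1, against 8.73, 9.14, 7.41 and 7.19 FPKM in WT. The genotypes did not overlap, but the log2 difference was the smallest of the 6 that did not, 0.65 in AI and 0.42 in FLW.

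CRF6, a cytokinin response factor of the AP2/ERF family that responds to oxidative stress, had even levels in amiR-SEAP1. It had 34.98, 34.4, 35.5 and 34.7 FPKM in amiR-SEAP1, against 13.5, 12.8, 11.2 and 11.2 FPKM in WT. The 4 amiR-SEAP1 libraries lay within about 1 FPKM of each other, and amiR-SEAP1 was at 3.14 times WT in AI and at 2.64 times in FLW.

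Among the markers and effectors, UPOX, named for its induction by oxidative stress, had 28.1, 28.7, 31.8 and 31.2 FPKM in amiR-SEAP1, against 8.76, 7.36, 7.08 and 5.66 FPKM in WT. Every amiR-SEAP1 library was above 28 FPKM and every WT library below 9 FPKM. amiR-SEAP1 was at 4.95 times WT in AI and at 3.53 times in FLW, and 16 of the tested genes had a higher signed mean log2 difference. By level, UPOX stood above 76.4% of tested genes in amiR-SEAP1 and above 31.6% in WT.

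AT5G51440, a small heat shock protein gene, belongs to a class of chaperones that bind unfolding proteins. It had 5.13, 5.46, 5.31 and 4.85 FPKM in amiR-SEAP1, against 1.30, 1.203, 0.397 and 0.369 FPKM in WT. The amiR-SEAP1 libraries were alike in both sets, whereas WT was lower in AI than in FLW. HSP23.6-MITO, the other mitochondrial small heat shock protein gene, was listed at 0, 0.237, 0.102 and 0.137 FPKM in amiR-SEAP1, against 0.114, 0.118, 0 and 0 FPKM in WT. It overlapped between the genotypes and did not reach the level for testing.

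AT2G04050 is annotated as a MATE gene, a family of transporters that export toxins and other small molecules. It had 8.04, 8.19, 7.34 and 7.18 FPKM in amiR-SEAP1, against 0.878, 0.686, 0.0958 and 0.0207 FPKM in WT. The transcript was thus close to 0 in WT, most of all in the AI libraries, and the log2 difference was 2.97 in AI and 2.36 in FLW, with 5 tested genes above its mean difference. A ratio within AI would rest on WT values near 0 and is not given, beyond its being above 2. The 18.3 times over both sets rests in part on the same WT values.

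AT5G09570, a stress marker gene that the reference table leaves unnamed, went opposite ways in the sets. It had 22.6, 22.1, 53.9 and 50.4 FPKM in amiR-SEAP1, against 31.9, 31.5, 34.4 and 35.5 FPKM in WT. Both AI libraries of amiR-SEAP1 were above all WT libraries and both FLW libraries below them, so that amiR-SEAP1 was at 1.49 times WT in AI and at 0.705 times in FLW. The mean log2 difference over both sets was 0.04.

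**Figure D2:**
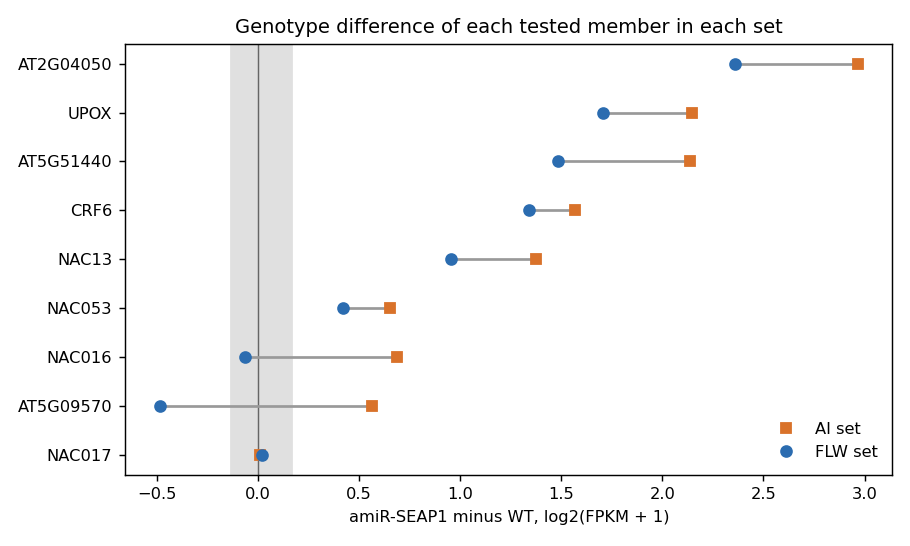
Difference amiR-SEAP1 minus WT in log2(FPKM + 1) (horizontal axis) for the 9 tested genes, squares for AI and circles for FLW, with the middle 50% of all tested genes in grey. AT2G04050 lies farthest right at 2.97 in AI and 2.36 in FLW, NAC017 lies at 0 in both sets, and AT5G09570 lies at 0.56 in AI and -0.49 in FLW.

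The signed difference amiR-SEAP1 minus WT was higher in AI than in FLW for 8 of the 9 genes. NAC017 was the exception at -0.01 (log2, AI difference minus FLW difference). Among all tested genes, 57.3% had the higher signed difference in AI, with a median of 0.05, against a median of 0.44 over the 9 genes. For a gene lower in amiR-SEAP1 in both sets, a higher signed difference is a smaller distance between the genotypes. This was not tested, since it is built on the contrast in which the genes were known to differ. In WT, 8 of the 9 genes were lower in AI than in FLW, by 0.08 (NAC017) to 0.75 (AT2G04050) on the log2 scale, where 56.5% of tested genes were lower. In amiR-SEAP1, the difference AI minus FLW lay between -0.14 and 0.15 for every one of the 9 except AT5G09570 (1.19).

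The difference between the sets, averaged over the genotypes, was tested with limma across all 20743 genes with genotype and set as terms and paired libraries treated as correlated. In this test 11.8% of genes were higher and 13.5% lower in AI at an adjusted p under 0.05. AT5G09570 rose in AI by 0.66 ± 0.19 (log2, SE, limma adjusted p = 0.0328), made up of an AI minus FLW difference of 1.19 in amiR-SEAP1 and 0.14 in WT. The call was lost with limma on the mean of each pair (adjusted p = 0.285) and without WT replicate 4 or any 1 amiR-SEAP1 replicate (adjusted p = 0.0548 to 0.0587). The other 8 did not pass, the nearest being AT2G04050 (-0.45 ± 0.17, limma adjusted p = 0.0834) and AT5G51440 (-0.38 ± 0.17, adjusted p = 0.133). UPOX differed by -0.08 ± 0.17 (adjusted p = 0.783) and NAC13 by -0.08 ± 0.12 (adjusted p = 0.669). What differed between FLW and AI besides the name in the header is not given in the sources used here.

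**Figure D3:**
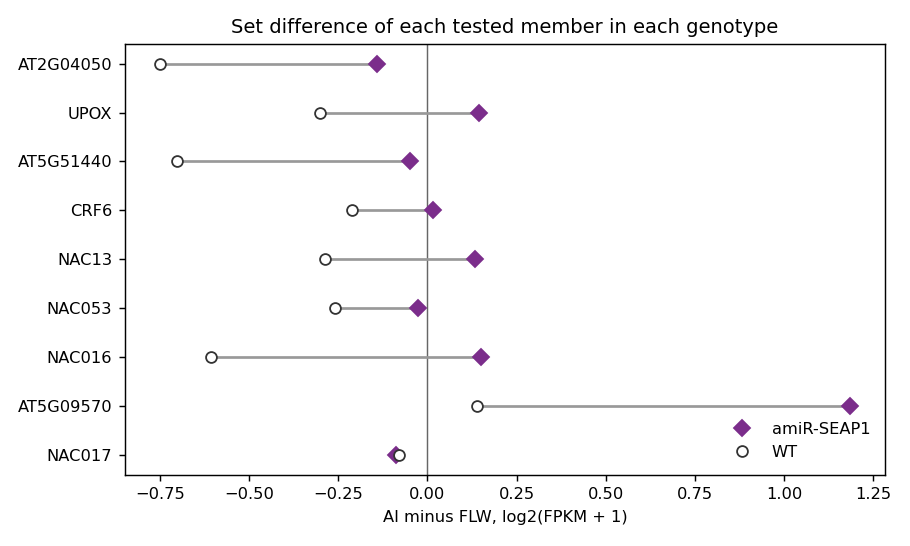
Difference AI minus FLW in log2(FPKM + 1) (horizontal axis) for the same 9 genes, diamonds for amiR-SEAP1 and open circles for WT. WT lies left of 0 for 8 genes, and amiR-SEAP1 lies between -0.14 and 0.15 except for AT5G09570 at 1.19.

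Other genes of the response were read from lists. The lists were also chosen with earlier results of these data known, so their counts and p-values are no independent support. For them, limma was fitted to the genotype difference over all tested genes with the correlation within pairs. The set was not a term, so differences between the sets added to the spread against which the genotypes were compared. That fit called 48 genes higher (0.231% of those tested) and 17 lower (0.082%). With the set added as a term and pairs still correlated, limma called 1543 higher and 1575 lower of the 20743. With the replicate number as a block it called 2852 higher (13.7%) and 2306 lower (11.1%). The block model takes the libraries of a pair as separate samples, so its p-values can be too small and its calls too many, here and below. In the fit without set or block and by unadjusted p under 0.05, 4.96% of all tested genes were higher and 4.69% lower. The unadjusted counts of the lists are to be read against these shares. Of 65 tested genes in the 7 lists of related genes, 1 rose and 0 fell (14 and 0 at an unadjusted p under 0.05). With the set as a term 15 rose and 0 fell, and with the replicate block 20 rose and 2 fell.

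The list of the mitochondrial dysfunction response held 20 genes besides those above, of which 16 were tested, and 1 rose and 0 fell. AOX1A, the alternative oxidase that passes electrons from ubiquinol directly to oxygen, had 41.4, 41.2, 50.6 and 51.9 FPKM in amiR-SEAP1, against 13.97, 14.6, 15.4 and 16.3 FPKM in WT. All amiR-SEAP1 libraries were above all WT libraries, and AOX1A rose by 1.55 ± 0.14 (log2, SE, limma adjusted p = 0.00232), with an adjusted p of 4.5e-05 to 0.0130 in the other settings except the mean of each pair, where it was 0.469. The list's median log2 difference was 0.24, against 0.03 over all tested genes, beside which the medians of the other lists are also to be read. With the set as a term 6 of the 16 rose and 0 fell, and with the replicate block 7 rose and 1 fell. NDB4 (1.92 FPKM in amiR-SEAP1, 0.607 in WT) and ABCB4 (1.36 and 0.737) reached the level for testing only through amiR-SEAP1. This bears on the list's counts and median. ABCB4 also overlaps other genes in the reference annotation, with the same doubt as for NAC13.

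None of the other regulators passed in the fit without the set as a term. Of 7 tested membrane-bound and related NAC genes, 0 rose and 0 fell (1 and 0 at an unadjusted p under 0.05), with a median of 0.07. The counts were 1 and 0 with the set as a term, and 1 and 0 with the replicate block. NAC103, a NAC factor of the unfolded protein response, averaged 5.40 ± 0.195 FPKM in amiR-SEAP1 and 3.08 ± 0.110 FPKM in WT (limma adjusted p = 0.491, and 0.00582 with the replicate block), and NAC069 averaged 5.45 FPKM in amiR-SEAP1 and 6.86 FPKM in WT. Of 8 tested further retrograde regulators, 0 passed (2 and 0 by unadjusted p under 0.05), with a median of 0.19. The counts were 2 and 0 with the set as a term, and 3 and 0 with the replicate block. RCD1, a nuclear protein that binds and restrains NAC13, averaged 105.8 ± 11.3 FPKM in amiR-SEAP1 and 72.2 ± 5.41 FPKM in WT (limma adjusted p = 0.109). MYB29, better known for aliphatic glucosinolate synthesis, averaged 4.29 ± 2.56 FPKM in amiR-SEAP1 and 0.913 ± 0.397 FPKM in WT (adjusted p = 0.248). MYB29 reached the level for testing only through amiR-SEAP1, which bears on the counts and median of its list.

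None of the relatives of CRF6 passed. Of the 7 other cytokinin response factor genes tested, 0 passed, also at an unadjusted p under 0.05, and their median was -0.07. With the set as a term 0 rose and 0 fell, and with the replicate block 0 rose and 1 fell. The 2 with the smallest p were CRF5, at 9.93 FPKM in amiR-SEAP1 and 7.67 FPKM in WT (limma adjusted p = 0.571), and CRF2, at 10.3 FPKM in amiR-SEAP1 and 12.6 FPKM in WT (adjusted p = 0.657).

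Chaperones and proteases that maintain the proteins of the mitochondrial matrix and membranes gave no call in the fit without the set as a term. Of 18 tested, 0 passed (5 and 0 by unadjusted p under 0.05), with a median of 0.23. The counts were 6 and 0 with the set as a term, and 9 and 0 with the replicate block. The disaggregase gene CLPB4 averaged 12.0 ± 0.146 FPKM in amiR-SEAP1 and 8.89 ± 0.0541 FPKM in WT (limma adjusted p = 0.315), and mtHsc70-1, a matrix HSP70, averaged 116.2 ± 9.29 FPKM in amiR-SEAP1 and 90.2 ± 14.8 FPKM in WT (adjusted p = 0.328).

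Heat shock genes outside mitochondria were also not called. Of 14 listed, 7 were tested and 0 passed, also at an unadjusted p under 0.05, with a median of 0.09. HSP90.1 averaged 5.15 FPKM in amiR-SEAP1 and 3.51 FPKM in WT (limma adjusted p = 0.631), and HSP70 averaged 5.25 FPKM in amiR-SEAP1 and 4.07 FPKM in WT (adjusted p = 0.780). Of the 6 MATE genes listed from the surroundings of AT2G04050, 2 were tested and 0 passed, also at an unadjusted p under 0.05, with a median of -0.07. AT2G04080 averaged 3.28 FPKM in amiR-SEAP1 and 3.66 FPKM in WT, and AT2G04066 averaged 1.29 FPKM in amiR-SEAP1 and 1.38 FPKM in WT. DTX1 overlaps AT2G04039 in the reference annotation, so its values carry the same doubt as those of NAC13. DTX1, the direct neighbour of AT2G04050, lay at 0.163 to 0.236 FPKM in amiR-SEAP1 and at 0 to 0.0385 FPKM in WT. The genotypes did not overlap, but it was below the level for testing. How reads shared by such related neighbours were counted is not given in the sources used here.

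**Figure D4:**
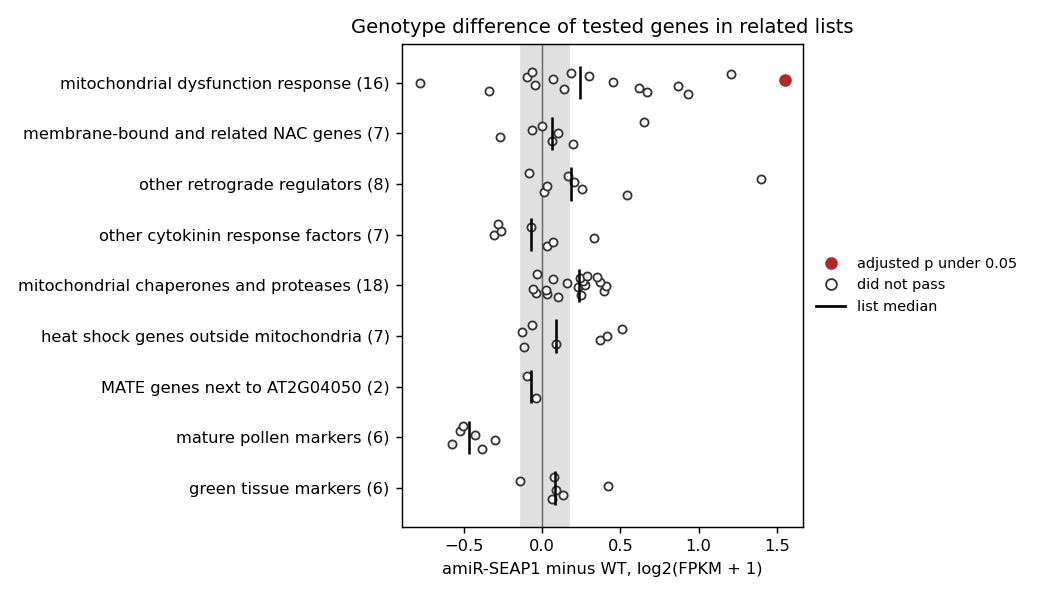
Difference amiR-SEAP1 minus WT in log2(FPKM + 1) (horizontal axis) of each tested gene in 9 lists (rows, number tested in brackets), with the list median as a bar and the middle 50% of all tested genes in grey. The filled point is AOX1A at 1.55, the 1 gene that passed in the fit without the set as a term. The 6 mature pollen markers lie left of 0.

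Markers of other cell types were read beside these genes. The summed level of 6 mature pollen genes was 1368 to 1689 FPKM in amiR-SEAP1 and 1631 to 2424 FPKM in WT. It was lower in amiR-SEAP1 in both sets, at 1681 against 2417 FPKM in FLW and 1378 against 1634 FPKM in AI. Of the 6, 4 were lower without overlap, as were 9.56% of tested genes. None of the 6 passed (0 higher and 4 lower by unadjusted p under 0.05), and their median was -0.47. With the set as a term 6 fell, as did 6 with the replicate block. ADF7 averaged 34.0 FPKM in amiR-SEAP1 and 49.3 FPKM in WT (limma adjusted p = 0.186), and PPME1 averaged 384.7 FPKM in amiR-SEAP1 and 504.9 FPKM in WT (adjusted p = 0.308). The summed level of 6 green tissue genes was 10288 to 13207 FPKM in amiR-SEAP1 and 9693 to 12799 FPKM in WT. Of these genes 0 passed (1 higher and 0 lower by unadjusted p under 0.05), with a median of 0.08. With the set as a term 1 rose and 0 fell, and with the replicate block 0 rose and 0 fell. LHCB2.2 averaged 793 FPKM in amiR-SEAP1 and 595 FPKM in WT, and LHCA3 averaged 645.8 FPKM in amiR-SEAP1 and 589 FPKM in WT. No marker of either list was at 0, and the part of tissue mix in the differences above was not tested.

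Over the 8 libraries, the levels of CRF6 (Pearson r = 0.996), NAC13 (0.990), AT2G04050 (0.990), AT5G51440 (0.982) and NAC053 (0.959) followed UPOX on the log2(FPKM + 1) scale, and those of NAC016 (0.648), HSP23.6-MITO (0.443), NAC017 (0.177) and AT5G09570 (0.082) did so less. UPOX and most of these genes were chosen for their genotype difference, so r largely restates that split, over 8 libraries in 4 pairs that share their set and genotype. Of the 15968 other genes averaging at least 5 FPKM, the 8 most like UPOX by the same measure were AT1G50920 (r = 0.998), AT5G22820, RS2Z32, PSD1, AT2G18193, AT4G25290, AT5G16610 and AtNug2 (0.992). They too were picked by their likeness to UPOX, so their levels are a description, with no test. AT2G18193 had 22.0 to 30.5 FPKM in amiR-SEAP1 and 2.82 to 4.52 FPKM in WT. PSD1, a mitochondrial phosphatidylserine decarboxylase, had 5.68 to 5.94 FPKM in amiR-SEAP1 and 3.97 to 4.47 FPKM in WT. AT1G50920 had 112.9 to 116.3 FPKM in amiR-SEAP1 and 89.8 to 93.3 FPKM in WT. The values of AT5G22820, RS2Z32 and PSD1 carry the same doubt as those of NAC13, since each shares its place in the annotation with another gene.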

How the data were processed

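Per the file headers, the authors deposited mRNA levels in FPKM. HISAT2 and TAIR10 are named in the submitters' processing notes. What computed FPKM, and whether strand was used, is not given in the sources used here. Small RNA counts were not used here. Symbols and overlaps between genes came from the RefSeq table of assembly TAIR10.1 (28932 of 33610 IDs matched), and no coordinates are given. Because the values are FPKM, limma 3.58.1 (R 4.3.3) was fitted to log2(FPKM + 1) with a mean-variance trend over the 20743 genes averaging at least 1 FPKM, with duplicateCorrelation for the libraries of 1 genotype in 1 set (correlation 0.906) and Benjamini-Hochberg adjustment at 0.05. The code was tested on simulated data. The correlation was 0.700 in the test between sets. The fit keeps the degrees of freedom of 8 libraries, so p-values can be too small. limma on pair means, other models of the pairs, the set as a term, another pseudocount, filter or scaling, and leaving out each library were alternatives. Applying them to AOX1A was chosen after seeing the data. A search of promoters for the mitochondrial dysfunction motif was planned and not run, as no sequence was used here.

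The members and lists were chosen with earlier results of these data known. Named are the 10 members, list genes that passed or else the 2 with the smallest p, and the 8 genes most like UPOX. DTX1, a neighbour of AT2G04050, AT1G32880, which overlaps NAC13, and NDB4 and ABCB4 fall outside this rule and were named after their values were seen. AT2G04039 is named only for its overlap with DTX1. Genotypes and replicate numbers came from the titles, and sets from the column headers. Deviations from the group mean correlated between same-numbered libraries (r = 0.398, 0.420, 0.405 and 0.430), as did those of libraries of the same set with other numbers (r = 0.395 to 0.430), so the numbers carry the set.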

Additional observations from a re-analysis of the deposited data

Results flagged for a closer look

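The genotype difference of AT5G09570 had opposite signs in the sets. Both amiR-SEAP1 libraries were above both WT libraries in AI (log2 difference 0.56) and below them in FLW (-0.49). The AI difference minus the FLW difference was 1.05, and 1.63% of the tested genes had a larger value. Whether the genotype difference itself differs between the sets was not tested.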

How the results depend on the processing

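The count of genes called between the genotypes, 48 higher and 17 lower in amiR-SEAP1, changed with the treatment of pairs. It also changed when the set was added as a term with pairs still correlated. limma called 1556 higher and 975 lower with the libraries taken as independent, 2852 and 2306 with the replicate block, 1543 and 1575 with the header set as a term, and 0 and 0 on the mean of each pair (692 and 558 at an unadjusted p under 0.05). It called 142 and 71 without a filter, 13 and 3 with a filter at a mean of 5 FPKM, 21 and 4 without a trend, and 13 to 21 higher and 1 to 4 lower without any 1 library. The count moved by less than 1.5 times with a pseudocount of 0.1 or the same upper quartile, and the cause of the other shifts was not tested. Between the sets, limma called 2444 genes higher and 2791 lower in AI, and 0 and 0 on pair means (1944 and 2366 at an unadjusted p under 0.05). In the 7 related lists, 17 rose and 2 fell with independent libraries, 20 and 2 with the replicate block, 15 and 0 with the set as a term, and 0 and 0 on pair means (11 and 0 at an unadjusted p under 0.05). The genotype differences of UPOX, NAC13, NAC053, CRF6, AT5G51440 and AT2G04050 kept their sign with a pseudocount of 0.1, the same upper quartile, each library left out, and each set alone. The models of the pairs, the set as a term, the filter and the trend give the same estimate, so they could not change the sign. NAC016 and AT5G09570 had mean genotype differences of 0.31 and 0.04, but -0.07 and -0.49 in FLW. The set difference of AT5G09570 stayed above 0 in every setting. With a pseudocount of 0.1, the genotype differences of AT5G51440 and AT2G04050 were 2.71 and 4.40, in place of 1.81 and 2.66. The depth in reads is unknown, which limits what can be said of HSP23.6-MITO and of AT2G04050 in WT.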
